A study of Rattus norvegicus with 11 samples.

Results

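Spinal nerve ligation was compared with sham surgery across all expressed genes of the rat dorsal root ganglion. A gene is a member if 3 or more of the 8 libraries of these groups hold it at 10 or above, which left 11823 of the 16811 genes in the table, and 11822 of them were tested. The untested member was Sdc2, the gene of the membrane proteoglycan syndecan-2. It was listed at 0 in every ligated library and well above 10 in every Sham library, and it gets no fold here. The Sham group (n = 4) holds ganglia of control, sham-operated Sprague-Dawley rats taken from the right side. The SNL group (n = 4) holds ganglia of Sprague-Dawley rats whose spinal nerve was ligated, taken from the left side, so that side and ligation cannot be told apart. A further group of 3 ligated libraries treated with UNC0638, an inhibitor of the histone methyltransferases G9a and GLP, was used in an alternative fit only. The labels give neither the age of the rats, the ligated level, the time after ligation nor the number of rats behind a library. Nothing in them says that a replicate is an animal of its own, so that p-values measure only how these libraries vary, which may be technical.

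The dorsal root ganglion holds the cell bodies of the sensory neurons that serve skin, muscle and viscera, wrapped in satellite glia and set among Schwann cells, fibroblasts, vessels and resident macrophages. Ligation of the spinal nerve cuts the axons of these neurons off from their targets, and the procedure is a standard rodent model of neuropathic pain. Axotomized sensory neurons are known to turn down genes for transmission and to turn on genes for axon growth and stress, while immune and connective tissue cells of the ganglion increase in number. In bulk RNA such as this, fewer cells of a type and less RNA per cell cannot be told apart.

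Values are the authors' read counts per gene after scaling between libraries. Their totals were 9986076 to 11347920 in the 8 libraries, with an estimated 7282757 to 24367571 reads behind them. Of the neuronal markers, 11 of 13 tested fell and 1 rose, and their summed value was 387046 to 503488 in Sham and 186073 to 269984 in SNL. That sum includes the neurofilament genes Nefl, Nefm and Nefh, with Sham means of 121309, 44227 and 110163. Their SNL means were 26691, 11609 and 31758. The fall of the sum is in large part theirs, and the sum without them was not taken. Markers of macrophages (11 of 12 tested higher, 0 lower; sum 1454 to 3392 in Sham and 5813 to 8569 in SNL), of T and NK cells (6 of 6 higher; 179.8 to 446 and 882 to 1266), of fibroblasts (7 of 8 higher, 0 lower; 24361 to 34942 and 86774 to 218023) and of dividing cells (5 of 7 higher, 0 lower; 240.0 to 337 and 799 to 1592) went the other way. Myelinating Schwann cell markers summed to 60759 to 70198 in Sham and 59094 to 85749 in SNL, with 2 of 8 higher and 0 lower, and satellite glia markers gave 3 higher and 3 lower of 9. The markers go with the labelled tissue, with neurons and both kinds of glia at high levels in every library. The 5 markers under 3 in all 8 libraries were Mpo and Elane of neutrophils, Emr1 of macrophages, Cldn5 of endothelium and the oligodendrocyte gene Mobp. The neutrophil set summed to 31.5 to 219.8 in Sham and 93.1 to 204 in SNL (1 of 4 tested higher, 0 lower), and the spinal cord set to 2380 to 4671 and 2577 to 4322 (1 higher and 1 lower of 5). The skeletal muscle set summed to 181 to 207 in Sham and 148 to 559 in SNL (1 of 6 tested higher, 0 lower), highest in SNL replicate 3. Endothelium markers gave 1241 to 1982 and 2443 to 2988 (4 of 6 higher, 0 lower). Red blood cell markers gave 685 to 1509 and 722 to 1958 (0 of 5 called). The part of these shifts in the gene results below was not tested. Replicate 3 of either group deviated most from its group mean, with an SD of the log2 deviations across genes of 0.474 in Sham and 0.417 in SNL against 0.205 to 0.321 in the other 6 libraries.

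Levels differed between the ligated and the sham ganglia for many expressed genes, in both directions. By limma on log2(value + 1), with Benjamini-Hochberg adjustment over all genes tested, 5633 of 11822 genes passed an adjusted p of 0.05 (47.6%), of which 2868 rose (24.3%) and 2765 fell (23.4%). The groups did not overlap for 43.7% of the genes. Among called genes, 1393 were at least 2-fold higher (11.8%) and 920 at least 2-fold lower (7.78%). The fold sizes reached further upward than downward, with 396 genes at least 4-fold higher and 286 at least 4-fold lower, 114 and 107 at 8-fold, 43 and 25 at 16-fold, and 22 and 11 at 32-fold. A fold change of a low gene is understated on this scale because of the 1 that is added.

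The direction of change followed the level of a gene. With genes cut into 5 equal classes by their mean value, 756 of 2365 in the lowest class (5.26 to 79.96) rose (31.97%) and 387 fell (16.4%), with a median log2 fold change of 0.33. In the class with the highest mean (1037 to 90097), 450 of 2365 rose (19.0%) and 795 fell (33.6%), with a median of -0.19. Over all classes, 194 genes reached 10 in no Sham library, so that they could enter only through SNL, and 183 of them were called higher. A further 86 reached 10 in no SNL library, and 83 of them were called lower. The lowest class held 184 of the former, 173 of them called higher, and all 86 of the latter. Among the 11061 genes that reached 10 in 3 or more libraries of each group, 23.0% rose and 23.2% fell.

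The genes that rose took up a much larger part of the RNA after ligation. They held 14.2% to 14.9% of the total in the Sham libraries and 25.9% to 32.8% in the SNL libraries. The genes that fell held 36.9% to 40.2% in Sham and 21.8% to 25.4% in SNL, so that neither set overlapped between the groups. As the same values chose these sets, the shares are a description. SNL replicate 3 had the smallest share of risers and the largest share of fallers among the ligated libraries.

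**Figure D1:**
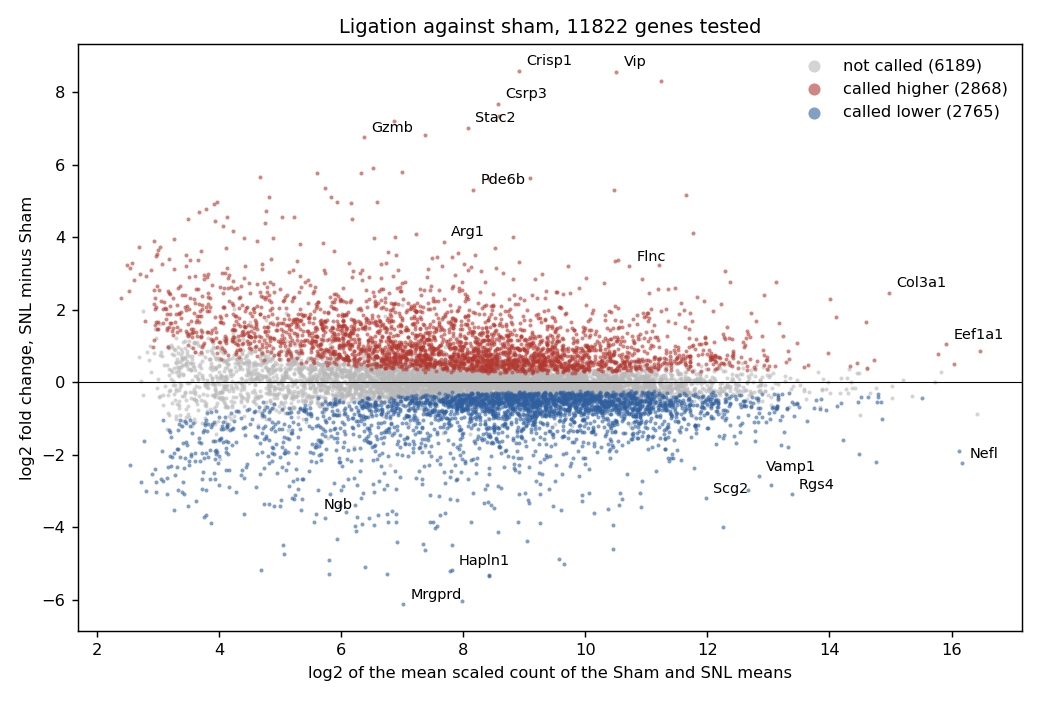
Each point is 1 of 11822 genes, with the log2 of its mean scaled count on the x axis and its log2 fold change (SNL minus Sham) on the y axis. The 2868 genes called higher are red, the 2765 called lower are blue and the 6189 not called are grey; the highest point is Crisp1 at 8.602 and the lowest Mrgprd at -6.12.

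One group of genes was almost silent in sham ganglia and plainly present after ligation. A value under 5 in every Sham library and of at least 50 in every SNL library was found for 9 genes, of which 8 are described: Crisp1, Csrp3, Hpd, Gzmb, Il24, Has1, Vtcn1 and Ucn. Among the genes searched, none showed the reverse in all 8 libraries. The untested Sdc2 was left out of the search, although its listed values meet the reverse rule. RefSeq's promoter table (build GRCr8, which is not the build of the counts) held windows for 6 of the 9, from 250 bases before to 50 bases after the start of the gene. The windows were searched on both strands for the motif bound by AP-1, the family of dimers of Fos, Jun and related proteins (TGACTCA, or TGAGTCA on the other strand), and for the cyclic AMP response element, CRE (TGACGTCA, which reads the same on both strands). Both are known binding sequences of bZIP factors, and a match is a description of the letters, not of binding. Hpd, Gzmb and Vtcn1 held the AP-1 letters, Has1 and Ucn the CRE letters, and the window of Il24 held neither. The 250 bases before the start of these 5 genes are shown because they carry the matches, 5′ to 3′ on the strand of the gene, with the matches in capitals.
Hpd (chr12:39041996-39042245, plus strand): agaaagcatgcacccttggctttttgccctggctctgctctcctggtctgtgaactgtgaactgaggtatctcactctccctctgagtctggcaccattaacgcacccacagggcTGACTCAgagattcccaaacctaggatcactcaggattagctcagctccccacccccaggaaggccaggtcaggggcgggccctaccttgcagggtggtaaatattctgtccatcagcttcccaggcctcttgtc
Gzmb (chr15:34462470-34462719, minus strand): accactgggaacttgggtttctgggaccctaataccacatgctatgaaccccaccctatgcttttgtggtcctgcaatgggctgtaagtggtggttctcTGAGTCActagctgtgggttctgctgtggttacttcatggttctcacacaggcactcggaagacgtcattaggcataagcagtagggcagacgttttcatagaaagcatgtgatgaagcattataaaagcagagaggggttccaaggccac
Vtcn1 (chr2:190941974-190942223, plus strand): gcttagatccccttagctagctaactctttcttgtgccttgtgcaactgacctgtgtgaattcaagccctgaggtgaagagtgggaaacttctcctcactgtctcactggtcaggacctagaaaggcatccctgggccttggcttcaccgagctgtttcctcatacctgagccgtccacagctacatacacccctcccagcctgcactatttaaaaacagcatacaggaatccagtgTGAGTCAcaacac
Has1 (chr1:67378445-67378694, minus strand): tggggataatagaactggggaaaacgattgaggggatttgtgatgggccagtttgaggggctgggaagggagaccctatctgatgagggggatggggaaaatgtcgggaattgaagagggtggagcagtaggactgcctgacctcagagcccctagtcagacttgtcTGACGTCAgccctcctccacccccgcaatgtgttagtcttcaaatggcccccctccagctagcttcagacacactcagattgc
Ucn (chr6:30957836-30958085, plus strand): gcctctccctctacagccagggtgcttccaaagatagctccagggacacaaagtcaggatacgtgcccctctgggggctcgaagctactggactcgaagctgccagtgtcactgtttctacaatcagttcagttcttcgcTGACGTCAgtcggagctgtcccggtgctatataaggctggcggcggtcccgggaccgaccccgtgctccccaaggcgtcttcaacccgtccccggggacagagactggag
Counted from -1 at the base before the start, the first base of the match lay at -135 in Hpd, -151 in Gzmb, -13 in Vtcn1, -83 in Has1 and -110 in Ucn.

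The values behind these 8 genes were as follows. Crisp1, which encodes a secreted cysteine-rich protein best known from the epididymis, had values of 1.39, 1.14, 1.56 and 1.54 in Sham replicates 1 to 4 and 1365, 982, 642 and 874 in SNL replicates 1 to 4 (adjusted p = 5.53e-08, log2 fold change 8.602 with SE 0.24). Csrp3, the gene of muscle LIM protein, had 1.39, 2.27, 3.12 and 3.84 in Sham and 1127, 760.5, 562 and 585 in SNL (adjusted p = 8.69e-07, log2 fold change 7.69 with SE 0.29). Both went from a few reads to 562 or more in every ligated library, with SNL replicate 3 the lowest. Hpd encodes the hydroxyphenylpyruvate dioxygenase of tyrosine breakdown, and its values were 1.39, 1.14, 0 and 0 in Sham and 303, 297, 178 and 148 in SNL. Gzmb, the gene of granzyme B, a protease of cytotoxic lymphocytes, had 0, 0, 1.56 and 0.769 in Sham and 219, 199, 114 and 126 in SNL. The T and NK cell marker sum given above includes Gzmb itself, so that its rise is not a separate reading. The part of these cells in the rise of Gzmb was not tested. Il24, a cytokine gene of the interleukin-10 family, had 1.39, 2.27, 1.56 and 2.31 in Sham and 196, 161, 114 and 165 in SNL. Has1, which encodes a hyaluronan synthase, had 2.78, 1.14, 3.12 and 2.31 in Sham and 138, 117, 86.4 and 107 in SNL. In each of these no Sham library was above 3.12 and no SNL library below 86.4. Vtcn1, the gene of an inhibitory ligand of the B7 family, had 1.39, 0, 3.12 and 3.07 in Sham and 77.1, 133, 110.4 and 95.8 in SNL. Ucn, which encodes urocortin, a peptide of the corticotropin-releasing factor family, had 1.39, 1.14, 0 and 0.769 in Sham and 95, 132, 76.6 and 81.2 in SNL. All 8 passed the test, with adjusted p from 5.53e-08 to 4.79e-05, and this is fixed in part by the rule that chose them.

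The absence of a reverse set among the genes searched, which leave out Sdc2, rested on 1 library. Without SNL replicate 3, 13 genes met the rule upward and 9 downward, and without replicate 3 of both groups 18 and 10. The 9 that were nearly silent in SNL replicates 1, 2 and 4 were Mrgprd, Sptssb, Camkv, Myh8, Amdhd1, Cbln4, Hoxd1, Glb1l2 and Klhl14. Amdhd1, an enzyme gene of histidine breakdown, had values of 72.3, 63.6, 71.7 and 52.3 in Sham and 0, 1.71, 6.01 and 0.912 in SNL. Cbln4, the gene of a secreted synapse organizer of the cerebellin family, had 136, 96.6, 106 and 118 in Sham and 0.941, 3.86, 19.5 and 4.56 in SNL.

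**Figure D2:**
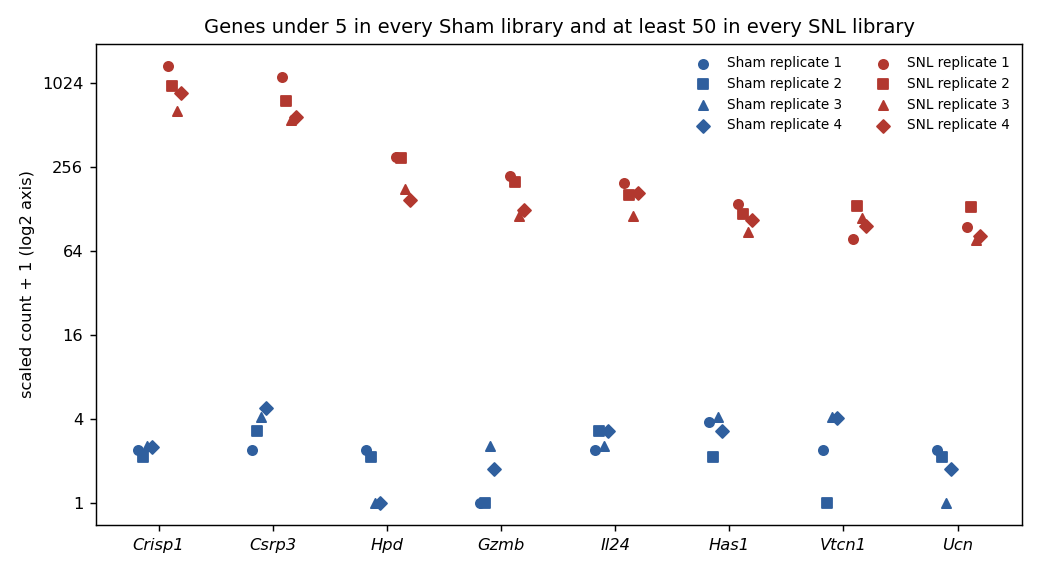
Scaled count + 1 on a log2 axis for 8 of the 9 genes under 5 in every Sham library and at least 50 in every SNL library, with 1 point per library. The Sham points all lie under 5 + 1 and the SNL points all lie above 50, and SNL replicate 3 is the lowest SNL point for 6 of these 8 genes.

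The AP-1 letters were most frequent in the promoter windows of the genes that rose most. A single window was found for 8388 of the 11822 genes tested, and 305 of these windows (3.64%) held the AP-1 letters, against 4.53% of all 24206 windows of the table. Among genes at least 16-fold higher, 12 of 31 windows held them (38.7%). The share was 10.6% of 47 windows at 8- to 16-fold, 6.90% of 174 at 4- to 8-fold, 5.48% of 712 at 2- to 4-fold and 3.20% of 1062 under 2-fold. Genes that were not called had 3.17%. Among genes that fell, the share was 3.34% of 1316 under 2-fold and 2.27% of 440 at 2- to 4-fold. It was 6.25% of 112 at 4- to 8-fold and 2.53% of 79 at 8-fold or more. The CRE letters showed a step only at the top, in 4 of 31 windows of genes at least 16-fold higher (12.9%) against 3.15% of all tested and 1.91% of the whole table. These shares are descriptions of sets chosen by their change. Of the 12 with AP-1 letters, Hpd, Gzmb, Ugt1a1, Vtcn1, Sprr1a, Ucn2, Mmp3, Hamp and Il1a had Sham means of 0 to 2.14. These genes could enter only through SNL, as could Ucn, Has1 and Cldn7 among the 4 with CRE letters. Pde6b, Cxcl14 and Nos1 had Sham means of 15.6 to 50.3.

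Beside those shares, the windows differed in base composition. The median number of CpG dinucleotides was 21 over all tested windows, 7 in genes at least 4-fold higher and 12 in genes at least 4-fold lower. Among windows with at most 10 CpG, 24 of 158 genes at least 4-fold higher held the AP-1 letters (15.2%), against 130 of 1782 over all tested genes (7.30%) and 3 of 83 genes at least 4-fold lower (3.61%). Within the lowest of the 5 classes of mean value, 18 of 135 genes at least 4-fold higher held them (13.3%), against 78 of 1563 of that class (4.99%). Those 135 include genes that could enter only through SNL, such as Sprr1a and Il1a. The TATA box letters (TATAAA or TTTATA) were in 15.5% of windows of genes at least 4-fold higher, 12.6% of those at least 4-fold lower, 6.81% of all tested and 14.3% of the whole table, so that they were more frequent than among all tested genes on both sides.

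**Figure D3:**
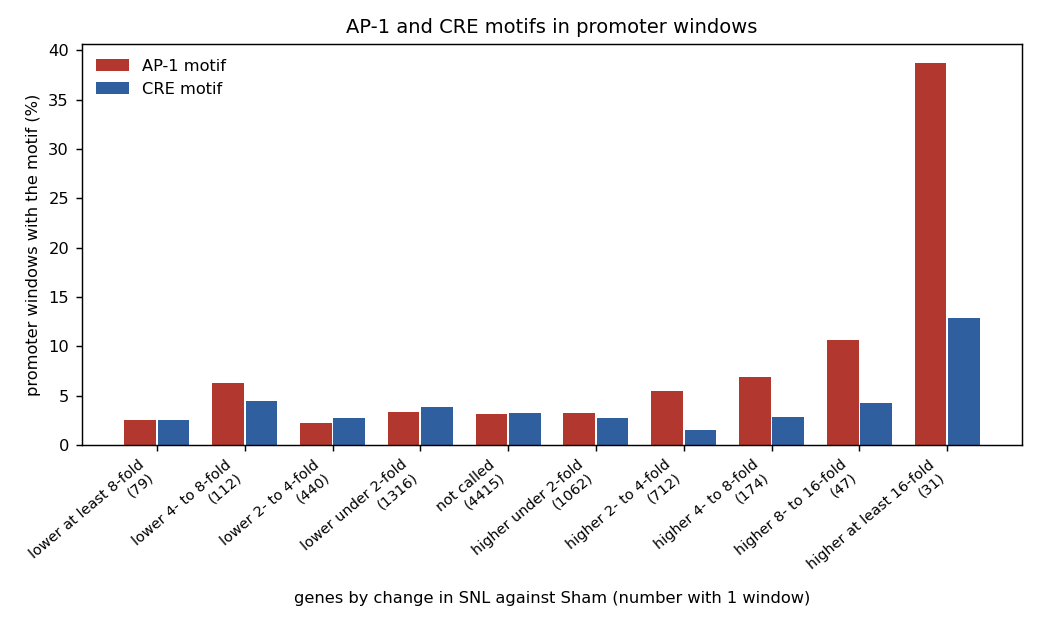
Share of promoter windows that hold the AP-1 letters (red) or the CRE letters (blue), in percent, by the size and direction of the change in SNL against Sham, with the number of windows in brackets. The AP-1 bar reaches 38.7% for the 31 genes at least 16-fold higher and stays between 2.27% and 6.25% for the groups of lower genes. Most genes with a match among those 31 could enter only through SNL.

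The matches of the other genes in the top group, with 15 bases on either side, show where these letters lie. The coordinates are those of the whole GRCr8 window, and the genes were named after their values were seen, because their windows held a match.
Ugt1a1 (chr9:96248893-96249192, plus strand): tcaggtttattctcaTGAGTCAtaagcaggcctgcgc
Cxcl14 (chr17:8322900-8323199, plus strand): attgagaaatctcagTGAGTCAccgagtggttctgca
Pde6b (chr14:1511386-1511685, minus strand): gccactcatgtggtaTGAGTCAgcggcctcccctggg
Sprr1a (chr2:180752576-180752875, minus strand): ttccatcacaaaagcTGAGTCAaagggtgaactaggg
Sprr1a (chr2:180752576-180752875, minus strand): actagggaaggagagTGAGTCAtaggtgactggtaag
Ucn2 (chr8:118515861-118516160, plus strand): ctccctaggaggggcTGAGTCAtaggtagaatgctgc
Mmp3 (chr8:12925031-12925330, plus strand): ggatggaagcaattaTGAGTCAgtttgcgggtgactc
Hamp (chr1:95300222-95300521, minus strand): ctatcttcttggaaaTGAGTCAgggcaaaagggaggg
Il1a (chr3:136989968-136990267, minus strand): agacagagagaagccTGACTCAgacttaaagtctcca
Nos1 (chr12:44371788-44372087, minus strand): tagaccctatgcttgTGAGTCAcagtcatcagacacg
Nos1 (chr12:44371788-44372087, minus strand): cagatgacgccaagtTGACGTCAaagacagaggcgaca
Cldn7 (chr10:55188420-55188719, plus strand): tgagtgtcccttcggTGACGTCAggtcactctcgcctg
Sprr1a, a gene of axon outgrowth after injury, held AP-1 letters at 2 places, with first bases at positions -147 and -117. Nos1, which encodes the neuronal nitric oxide synthase, held both motifs, and Cldn7, a tight junction gene, held CRE only. Ugt1a1, a gene of bilirubin conjugation, was listed at 0 in all Sham libraries and at 42.8 to 59.9 in SNL. Sprr1a and the interleukin gene Il1a were also at 0 throughout Sham. Cxcl14, a chemokine gene, went from 15.8 ± 14.5 to 671 ± 158, and Ucn2, a second urocortin, from 1.47 ± 1.71 to 52.7 ± 10.7. Mmp3, which encodes a matrix metalloproteinase, went from 2.14 ± 0.955 to 72.8 ± 18.8. Vip, Npy, Tgm1, Ptprh and Serpina3n, which rose as steeply, had windows without either set of letters.

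The highest fold changes were those of genes of several kinds. Beside Crisp1, Csrp3, Hpd, Gzmb and Il24, the rule for the 12 highest fold changes took Vip, Npy, Tgm1, Stac2, Ptprh, Serpina3n and Cldn4. Vip encodes vasoactive intestinal peptide, and its values were 6.96, 3.41, 4.67 and 14.6 in Sham and 3884, 3076, 2215 and 2437 in SNL (adjusted p = 1.55e-06, log2 fold change 8.57 with SE 0.36). Npy encodes neuropeptide Y, and its values were 12.5, 13.6, 14.02 and 14.6 in Sham and 5148, 5692, 3043 and 5339 in SNL (adjusted p = 2.83e-08, log2 fold change 8.31 with SE 0.19). Both peptide genes moved from near background to a high level in every ligated library. Tgm1, a protein cross-linking transglutaminase, had 2.78, 2.27, 6.23 and 3.84 in Sham and 882, 799, 493 and 892 in SNL. Stac2, an adaptor of voltage-gated calcium channels, had 2.78, 2.27, 10.9 and 0 in Sham and 271, 644, 987 and 246 in SNL, with Sham replicate 3 and SNL replicate 3 the highest of their groups. Ptprh, a receptor tyrosine phosphatase gene, had 5.56, 1.14, 0 and 0.769 in Sham and 531, 427, 62.3 and 290.0 in SNL, and here SNL replicate 3 was far below the other ligated libraries. Serpina3n, a secreted protease inhibitor, had 0, 0, 6.23 and 6.15 in Sham and 127, 210.1, 86.4 and 296 in SNL, and Cldn4, a claudin of tight junctions, had 2.78, 1.14, 6.23 and 3.84 in Sham and 392, 228, 111 and 276 in SNL. The log2 fold changes of these last 5 genes were 7.36, 7.03, 6.83, 5.92 and 5.81, with adjusted p from 9e-07 to 0.000293 by limma.

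Receptor genes of particular sensory neurons and genes of the neuronal matrix were among the steepest falls. Mrgprd, a receptor gene of nonpeptidergic nociceptors, had 339, 217, 182 and 265 in Sham and 1.88, 0.857, 27.8 and 0 in SNL (adjusted p = 0.000535, log2 fold change -6.12 with SE 0.87). Mrgprb4, a related receptor gene of neurons that respond to stroking, had 668, 487, 175 and 656 in Sham and 5.64, 4.29, 29.3 and 0.912 in SNL. Chrna3, the alpha3 subunit gene of nicotinic receptors, had 812, 428, 612 and 763 in Sham and 8.47, 9.86, 90.9 and 5.47 in SNL. In all of these the ligated libraries were under 10 except replicate 3, which lay at 27.8 to 90.9 and still below every Sham library. Hapln4 and Hapln1 encode link proteins that tie hyaluronan to proteoglycans; Hapln4 had 385, 408, 1256 and 479.6 in Sham and 4.703, 6.86, 185 and 3.65 in SNL and Hapln1 420.1, 506, 351 and 427 in Sham and 4.703, 2.57, 73.6 and 10.9 in SNL. Sham replicate 3 stood far above the other Sham libraries for Hapln4. Sptssb, the gene of a small subunit of serine palmitoyltransferase, had 107, 107, 88.8 and 122 in Sham and 0, 1.71, 19.5 and 0 in SNL. Sst, the gene of somatostatin, had 442, 309, 499 and 438 in Sham and 6.58, 4.29, 60.8 and 5.47 in SNL, and Camkv, the gene of a kinase-like vesicle protein, 198, 161, 143 and 144 in Sham and 1.88, 2.57, 16.5 and 1.82 in SNL. Htr3b, a serotonin receptor channel gene, went from 1521 ± 301 to 83.9 ± 117, Pvalb, which encodes the calcium buffer parvalbumin, from 1399.7 ± 304 to 111 ± 169.5, and the myosin gene Myh8 from 104 ± 23.4 to 7.05 ± 12.3. Mrgprx1 went from 199 ± 21.3 to 15.3 ± 22.97, but 2 ligated libraries held a small fraction of a read, so that its reads may be shared with related genes and its change is uncertain. In Pvalb and Htr3b too, SNL replicate 3 (364 and 259) held most of what was left in the ligated group.

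Among called genes, the largest falls of the group mean were those of the neurofilament genes: Nefl, the light subunit, had 108126, 130314, 115114 and 131682 in Sham and 23527, 24048, 39099 and 20091 in SNL (adjusted p = 5.65e-05, log2 fold change -2.23 with SE 0.19). Nefh, the heavy subunit, had 85561, 102044, 152424 and 100623 in Sham and 24658, 31052, 54160.4 and 17160.2 in SNL, and Nefm, the medium one, 27936, 27875, 86079 and 35017 in Sham and 5519, 9361, 27796 and 3759 in SNL. No ligated library reached the Sham range for any of the 3, although Nefm in SNL replicate 3 came close to its lower end. Sham replicate 3 stood far above the other Sham libraries for Nefm. Rgs4, which encodes a protein that shortens G protein signals, dropped from 19125 ± 7053 to 2261 ± 906 (adjusted p = 0.000183, log2 fold change -3.09 with SE 0.35). Calca, the gene of calcitonin and CGRP, went from 14564 ± 2895 to 2238 ± 1179, Ndrg4 from 39455 ± 1172 to 19815 ± 4155 and Fstl1, a secreted follistatin-like glycoprotein gene, from 28533 ± 2539 to 9591 ± 1885. Apoe, the apolipoprotein gene that marks glia, fell by less (from 53825 ± 6765 to 39782 ± 1225, adjusted p = 0.0132, log2 fold change -0.43 with SE 0.12) and lost its call when all libraries were scaled to the same total. Sncg, which encodes gamma-synuclein, overlapped between the groups (22706 to 41224 in Sham and 21395 to 25679.6 in SNL, adjusted p = 0.0394). The call of Sncg was lost without any 1 of Sham replicates 1, 2 or 4 or SNL replicates 1 to 4 (adjusted p 0.0569 to 0.112).

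Matrix, cytoskeleton and translation genes were among the largest absolute rises of called genes. Col3a1, a fibrillar collagen gene of loose connective tissue, had 8981, 7538, 10009.8 and 8902 in Sham and 51512, 34647, 30200.5 and 104855 in SNL (adjusted p = 0.000441, log2 fold change 2.47 with SE 0.34). SNL replicate 4 was at least 2 times every other ligated library for Col3a1. Col1a1 (from 5563 ± 1763 to 27332 ± 9955), Col1a2 (from 7855 ± 2153 to 27347 ± 7808) and the fibronectin gene Fn1 (from 2136 ± 668 to 15718 ± 8269.7) were also highest in SNL replicate 4. The fibroblast marker sum spanned 86774 to 218023 over the ligated libraries. That sum includes Col1a1, Col1a2 and Col3a1 and largely restates their values. Vim, the intermediate filament gene of glia and connective tissue, had 10997, 11013, 15471 and 10471 in Sham and 41354, 34891, 39362 and 34858 in SNL, and Ahnak, which encodes a giant scaffold protein, 44773, 35215, 50091 and 34764 in Sham and 63647, 63926, 73675 and 82725 in SNL. Tubb3, the neuronal beta-tubulin gene, had 54662, 56681, 47478 and 63866 in Sham and 80896, 92460.1, 67824 and 72954 in SNL (adjusted p = 0.0147, log2 fold change 0.49 with SE 0.14), and was the 1 neuronal marker that rose. Eef1a1 and Eef2, the elongation factors of translation, went from 40056 ± 4941 to 83219 ± 12731 and from 21216 ± 581 to 32889.6 ± 2602. Rmrp, the RNA of a ribonuclease complex, had the largest mean rise of all called genes (from 64739 ± 21029.7 to 115455 ± 32292, adjusted p = 0.0246, log2 fold change 0.86 with SE 0.27), but its groups overlapped. Its call was lost without Sham replicate 1, Sham replicate 4 or SNL replicate 4 (adjusted p 0.0597, 0.0645 and 0.0634).

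A total of 32 lists of pathways and families was counted, with 1164 tested members and no gene in more than 1 list. Of these members, 9 reached 10 in no Sham library and could enter only through SNL. Over all genes, 183 of 194 such genes were called higher. The lists were chosen beyond ion channels and cell marker sets, but they hold some neuronal markers, such as Elavl4 and Rbfox3 among the splicing factors. Each count is to be read against the 24.3% of all genes that rose, the 23.4% that fell and the median log2 fold change of -0.01 over all genes. The lists differed widely: the actin cytoskeleton had 52.3% higher and 2.27% lower, for example, and the node of Ranvier 14.3% and 46.4%. Marker sums of macrophages, fibroblasts and dividing cells rose along with the lists that rose. The neuronal sum, in large part made of neurofilament genes, fell along with those that fell.

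**Figure D4:**
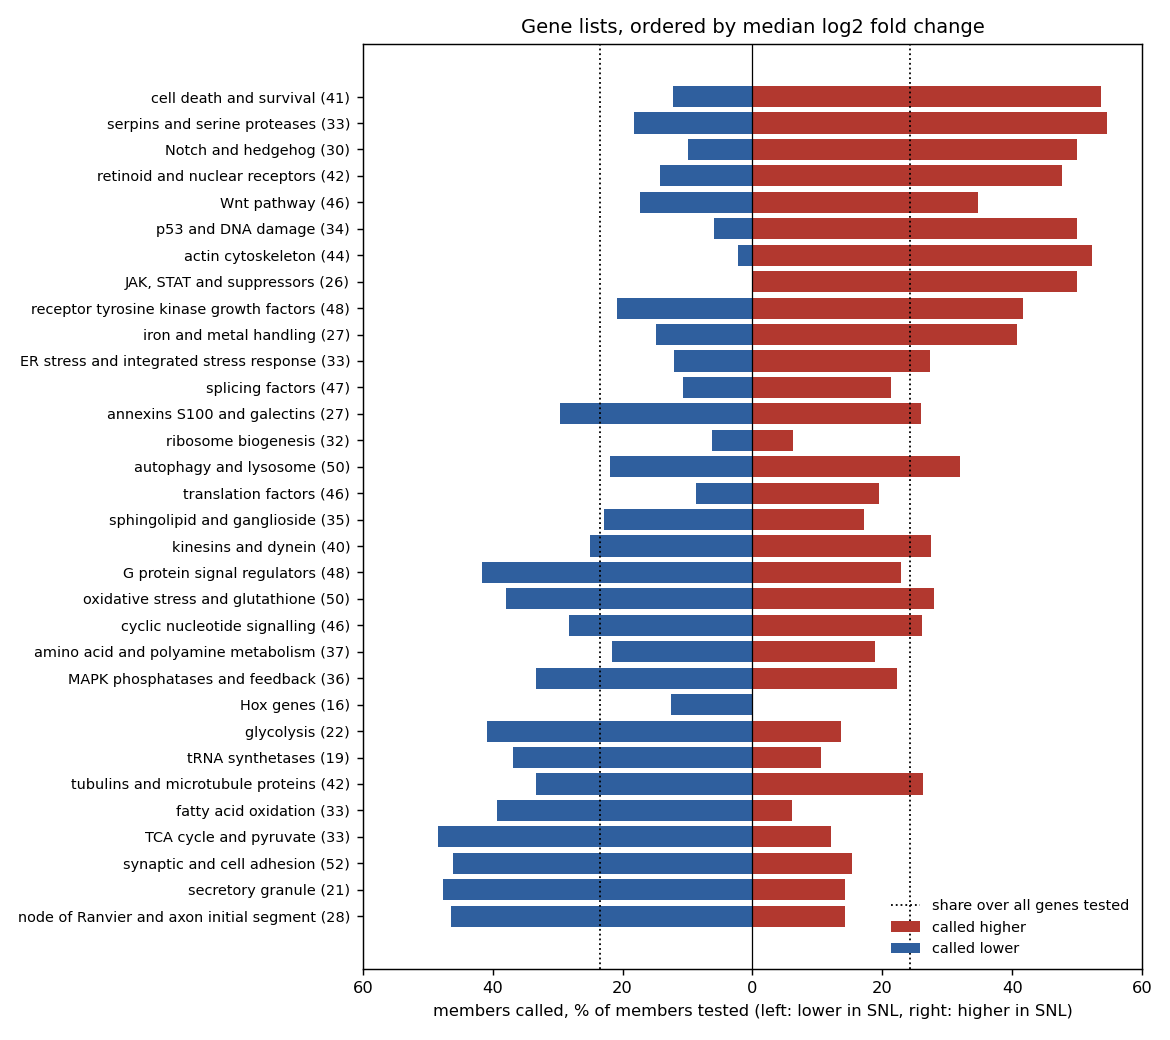
Share of tested members called lower (blue, left) and higher (red, right) in SNL for 32 gene lists, in percent, ordered by the median log2 fold change, with the number of tested members in brackets. The dotted lines give the shares over all genes, 23.4% lower and 24.3% higher; lists of cell death, serpins and Notch are at the top and those of the secretory granule and the node of Ranvier at the bottom.

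Most of the called genes of the actin cytoskeleton were higher. Of the actin cytoskeleton genes, 23 of 44 tested members rose and 1 fell, with a median log2 fold change of 0.43. Flnc, which encodes the actin cross-linker filamin C, had 264, 299, 524 and 283 in Sham and 3067, 3141, 2925 and 2967 in SNL (adjusted p = 1.25e-05, log2 fold change 3.197 with SE 0.20). Its ligated values lay close together, at several times every Sham value. Flna (from 3706 ± 376 to 9349.9 ± 1458), the actin-binding protein kinase C substrate gene Marcks (from 2617 ± 165 to 7662 ± 1242) and Arpc1b, a subunit gene of the Arp2/3 complex (from 1122 ± 107 to 3359 ± 417), rose as well. Several risers, among them Was (log2 fold change 2.24), Lcp1 (1.21) and Capg (1.497), are known from leukocytes. The only member that fell was Actr3 (-0.42), another subunit of that complex, with 5 lower without Sham replicate 3 and 0 without Sham replicate 1, 2 or 4 or SNL replicate 4.

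Tubulin and microtubule genes went both ways, 11 higher and 14 lower of 42, an order that turned to 14 higher and 10 lower with all libraries scaled to the same total. Stmn4, a stathmin gene of neurons, went from 249 ± 67.6 to 1815 ± 330.3 (adjusted p = 4.02e-05, log2 fold change 2.89 with SE 0.23), and Tubb6, a widely expressed beta-tubulin gene, from 191 ± 16.4 to 1124 ± 224 (adjusted p = 1.34e-05, log2 fold change 2.53 with SE 0.16). Stmn4 and Tubb6 were higher in each ligated library than in any Sham library. Dpysl4, of the collapsin response mediator family, went the other way (from 1779.5 ± 267 to 343 ± 75.5), as did the tubulin tyrosine ligase gene Ttl (from 2508 ± 87.01 to 1307 ± 156) and the microtubule-associated protein genes Map2 (log2 fold change -0.65) and Mapt (-0.59). Among kinesin and dynein genes 11 of 40 rose and 10 fell, which became 11 and 14 without SNL replicate 3. The carriers of axonal transport Kif5b (from 9475 ± 1423 to 4820.3 ± 241), Dync1i1 (from 5113 ± 282 to 2111 ± 349) and Dync1i2 (from 7626 ± 1096 to 3914 ± 186) fell. The risers included the mitotic kinesins Kif22 (from 88.98 ± 10.3 to 449 ± 77.5), Kif2c (log2 fold change 2.36), Kif11 (0.89), Kif23 (1.17) and Kif20a (1.07). These rose beside the sum of dividing cell markers, and its part in their rise was not tested.

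Most of the called genes of energy metabolism were lower. Of the tricarboxylic acid cycle and pyruvate genes, 4 of 33 tested members rose and 16 fell, with a median log2 fold change of -0.45. Mdh1, the cytosolic malate dehydrogenase gene, had 8091, 9357, 7227 and 8331 in Sham and 3578, 3725, 3912 and 3314 in SNL (adjusted p = 8.08e-05, log2 fold change -1.18 with SE 0.11). Mdh1 did not overlap between the groups, and its fall was about 2-fold. The succinyl-CoA ligase gene Sucla2 (from 3507 ± 560.1 to 1905 ± 37.6) and Pdhb, of pyruvate dehydrogenase (from 2157 ± 219 to 1202 ± 105), fell by less. The 4 that rose were Pdk4, a brake on pyruvate dehydrogenase (log2 fold change 0.92), Suclg2 (0.48), Me3 (0.37) and Aco1 (0.297). Only 1 member was called higher without Sham replicate 1, 2 or 4 or SNL replicate 2, and 2 without SNL replicate 1 or 4. In fatty acid oxidation 2 of 33 tested members rose and 13 fell. Acsl6, which activates long fatty acids, went from 2274 ± 148 to 639.8 ± 243 (adjusted p = 0.000183, log2 fold change -1.89 with SE 0.22), Etfa, of the electron transfer flavoprotein, from 2113 ± 363 to 999 ± 90.1, and the mitochondrial entry enzyme gene Cpt1a from 2889.7 ± 64.5 to 1866 ± 181. Acsl4, of the same activating family as Acsl6, rose from 1435 ± 205 to 3235 ± 332.

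In glycolysis 3 of 22 tested members rose and 9 fell, which became 7 and 8 with weighted voom on estimated reads. The glucose transporter genes Slc2a1 (log2 fold change 0.799) and Slc2a3 (0.43) and the hexokinase gene Hk2 (from 125 ± 25.1 to 282 ± 30.2) rose. All 3 phosphofructokinase genes fell, Pfkm from 4930.0 ± 462 to 2223 ± 516, Pfkp by 0.68 and Pfkl by 0.53 on the log2 scale. Aldoa, an aldolase gene, went from 18311 ± 1374 to 11019 ± 815 and Ldhb, of lactate dehydrogenase, from 4932 ± 356 to 2157 ± 369.7. Amino acid and polyamine genes gave 7 higher and 8 lower of 37, an order that turned under equal totals to 12 and 7, and 23 were called without replicate 3 of both groups. Ass1, which makes argininosuccinate, had 406, 475, 294 and 419.6 in Sham and 31.98, 38.6, 68.3 and 35.6 in SNL (adjusted p = 3.52e-05, log2 fold change -3.21 with SE 0.25). Arg1, the arginase gene known from liver and from alternatively activated macrophages, had 27.8, 18.2, 28.05 and 26.1 in Sham and 500.4, 341, 285 and 417 in SNL (adjusted p = 6.81e-06, log2 fold change 3.88 with SE 0.22). These genes of the urea cycle thus changed in opposite directions, by over 8-fold each. The aspartate aminotransferase gene Got1 fell from 3265 ± 212 to 1435 ± 374 and the taurine transporter gene Slc6a6 rose from 89.8 ± 28.5 to 246 ± 32.5.

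Few genes of ribosome assembly passed the test. Of the ribosome biogenesis genes, 2 of 32 rose and 2 fell, against the 24.3% and 23.4% of all genes. Myc, a driver of that program and counted in it, went from 72.03 ± 23.9 to 197 ± 16.5 (adjusted p = 0.000456, log2 fold change 1.48 with SE 0.21). The other 3 were at the edge: the calls of Nolc1 (log2 fold change -0.53), Rrp1 (-0.33) and Rrp9 (0.47) were lost with 1 library left out (adjusted p 0.0515 to 0.115). For Nolc1 this held for Sham replicates 2, 3 and 4 and SNL replicates 1, 2 and 4, for Rrp1 for Sham replicates 1, 2 and 4 and SNL replicates 3 and 4, and for Rrp9 for every library but SNL replicate 3. With a library left out, 8 members were called without Sham replicate 3, 1 without Sham replicate 4, and 2 when the library was Sham replicate 1, Sham replicate 2 or any SNL replicate but 3. Translation factors gave 9 higher and 4 lower of 46, and 20 called without Sham replicate 3 but 8 without Sham replicate 4 or SNL replicate 4. Beside Eef1a1 and Eef2, Eif4ebp1, which encodes a repressor of cap-dependent translation, rose from 47.1 ± 8.57 to 143 ± 17.9. Eif5a2 fell from 7402 ± 1599 to 3221 ± 112. Of 19 aminoacyl-tRNA synthetase genes, 7 fell and 2 rose, and 5 were called without Sham replicate 4. Iars went from 3544 ± 212 to 1895 ± 198, Aars from 5669 ± 488 to 3530.3 ± 572, Nars from 5940.5 ± 799 to 4159.9 ± 391 and Lars from 2779 ± 293 to 2093 ± 164, with adjusted p from 0.000202 to 0.0146. Tars (log2 fold change 0.33) and Cars (0.37) rose by little, and 0 members were called higher without Sham replicate 1 or 4 or SNL replicate 1 or 2.

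Of 47 splicing factor genes 10 rose and 5 fell. Several of the latter are best known from neurons. Elavl2 (from 4727 ± 713 to 2931 ± 184), Elavl4 (from 1172 ± 137 to 605 ± 114) and Rbfox3, the neuronal nuclear antigen gene (log2 fold change -1.95), fell. Ptbp1, a splicing repressor that is low in mature neurons, went from 358 ± 97.6 to 749.8 ± 76.8 (adjusted p = 0.000938, log2 fold change 1.097 with SE 0.18), and its relative Ptbp3 rose too (0.49). Celf3 rose from 38.5 ± 1.65 to 122 ± 26.5, although it is known from neurons. Without replicate 3 of both groups, 25 members of this list were called.

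Most of the called genes of cell death and of the p53 pathway were higher. Of the cell death and survival genes, 22 of 41 tested members rose and 5 fell, with a median log2 fold change of 0.93. The median depended on the filter: it was 0.65 with no filter and 0.11 when 4 libraries had to reach 50, where 17 rose and 5 fell. Of 9 caspase genes tested, 8 rose and Casp9 did not pass the test. Among the risers, Casp1, Casp2, Casp4, Casp6, Casp8 and Casp12 had log2 fold changes of 1.35, 0.99, 1.15, 1.26, 1.28 and 1.49. Ripk3, a kinase gene of necroptosis, had 13.9, 24.99, 29.6 and 26.9 in Sham and 197, 159, 138 and 217 in SNL (adjusted p = 6.34e-05, log2 fold change 2.88 with SE 0.26), with no overlap between the groups. Apaf1, the core of the apoptosome, rose from 260.0 ± 15.3 to 495 ± 20.8, and the death-promoting BH3 genes Hrk (2.42), Bmf (1.604) and Bcl2l11 (1.12) rose on the log2 scale. Bcl2l2, a survival gene of the BCL2 family, fell from 2105 ± 122 to 1057 ± 121. Map3k13 (-1.48) and Map3k12 (-0.49), kinases that relay axon damage to the nucleus, fell as well.

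Of the p53 and DNA damage genes, 17 of 34 tested members rose and 2 fell. Cdkn1a, the p21 inhibitor of the cell cycle, had 16.7, 31.8, 49.9 and 33.8 in Sham and 341, 394, 321 and 332 in SNL (adjusted p = 4.22e-05, log2 fold change 3.45 with SE 0.28). Its ligated values were close to each other and far above every Sham library. Gadd45a went from 327 ± 57.8 to 2208 ± 481 and Gadd45g from 132 ± 14.9 to 584 ± 104, both growth arrest and DNA damage genes. Cdkn2b, which encodes the cyclin kinase inhibitor p15, went from 169 ± 50.9 to 567 ± 59.2. Perp, a p53 target known from epithelia, fell (-2.18).

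Stress lists were mixed. Among genes of the endoplasmic reticulum and integrated stress responses, 9 of 33 rose and 4 fell, with 6 called without Sham replicate 4, 8 without SNL replicate 2 and 20 without replicate 3 of both groups. The sensor kinase gene Eif2ak3 (from 856 ± 87.9 to 1245 ± 56.1), Atf5 (from 253 ± 33.1 to 391 ± 45.9) and the pseudokinase gene Trib3 (from 8.69 ± 2.98 to 31.4 ± 5.997) rose. Ddit3, the CHOP gene that often stands for this response, fell slightly (log2 fold change -0.52), as did the serine synthesis gene Phgdh (from 1527 ± 205 to 900.3 ± 153). Oxidative stress and glutathione genes gave 14 higher and 19 lower of 50, an order that turned to 14 and 12 with equal totals. Mt3, the metallothionein gene of neurons, had 3475, 2816, 3687 and 3454 in Sham and 304, 279.5, 918 and 335 in SNL (adjusted p = 0.000161, log2 fold change -3.05 with SE 0.34), with SNL replicate 3 far above the other ligated libraries. Gclm, which helps make glutathione, and the glutathione transferase gene Gstm7 fell from 1332 ± 137 to 658 ± 75.2 and from 619 ± 42.1 to 224 ± 57.8. Subunit genes of the phagocyte NADPH oxidase, Cybb (log2 fold change 2.11), Cyba (1.84), Ncf1 (1.57) and Ncf4 (1.303), rose, in parallel with the macrophage marker sum. Prdx6, a peroxiredoxin gene, rose from 542 ± 51.2 to 1045 ± 98.

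Autophagy and lysosome genes gave 16 higher and 11 lower of 50. The autophagy genes Gabarapl1 (log2 fold change -0.702), Gabarapl2 (-0.78), Atg3 (-0.601), Atg5 (-0.39), Becn1 (-0.39) and Sqstm1 (-0.33) fell, while Atg14 (0.39) and Wipi1 (0.61) rose. Lysosomal membrane genes Cd63 (from 1226 ± 112 to 4033 ± 722) and Laptm5 (from 176 ± 23.9 to 609 ± 181), the latter of blood cells, rose, and so did the hydrolase gene Gusb (log2 fold change 0.96). The alpha-galactosidase gene Gla, which is deficient in Fabry disease, fell from 1369.6 ± 220.2 to 653 ± 37.1, and the acid lipase gene Lipa from 2351 ± 105 to 1236 ± 62.3.

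Iron and metal genes gave 11 higher and 4 lower of 27. Hamp, which encodes hepcidin, the iron hormone of the liver, had 1.39, 0, 0 and 0.769 in Sham and 27.3, 53.6, 27.8 and 28.3 in SNL (adjusted p = 6.64e-05, log2 fold change 4.56 with SE 0.41), a rise from the level of single reads. Tfrc, the transferrin receptor gene, fell from 3990.4 ± 628 to 1880.1 ± 85.4, and so did the iron exporter gene Slc40a1 (log2 fold change -0.61), while the metalloreductase genes Steap1 (1.83), Steap2 (from 120.5 ± 10.02 to 238 ± 13.5) and Steap4 (1.82) rose. Ngb, the gene of neuroglobin, had 102, 98.8, 74.8 and 82.2 in Sham and 3.76, 4.29, 10.5 and 8.21 in SNL (adjusted p = 5.49e-05, log2 fold change -3.64 with SE 0.32), and every ligated library was at 10.5 or less.

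Most called genes of secretory granules and of G protein signalling fell. Of the secretory granule genes, 3 of 21 tested members rose and 10 fell, with a median log2 fold change of -0.55. Scg2, a granin that packs peptides into granules, had 7572, 8391, 4891 and 7926 in Sham and 485, 698, 1405 and 716 in SNL (adjusted p = 8.51e-05, log2 fold change -3.203 with SE 0.30). Chga (from 1613 ± 238 to 383 ± 86.03) and Scg5 (from 2622 ± 460.2 to 1092 ± 44.7), of the same granules, fell with it. Vgf, another granin-like gene, had 511, 327, 729 and 669 in Sham and 1805, 2212, 2548 and 1943 in SNL (adjusted p = 0.000229, log2 fold change 1.98 with SE 0.24), and none of its ligated values overlapped Sham. G protein subunits and regulators gave 11 higher and 20 lower of 48. Beside Rgs4, Rgs8 (log2 fold change -3.86), Rgs10 (from 2200.4 ± 417 to 511 ± 32.5) and the alpha subunit gene Gna14 (from 1611 ± 345 to 497 ± 36.9) fell, and Rgs12 (from 313 ± 40.4 to 704 ± 65.8) and Gng11 (from 113 ± 13.8 to 406 ± 103) rose.

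Cyclic nucleotide genes gave 12 higher and 13 lower of 46, an order that turned to 12 and 10 with equal totals. Pde6b, a subunit gene of the phosphodiesterase of rod photoreceptors, had 4.17, 21.6, 24.9 and 11.5 in Sham and 629, 632, 515 and 459 in SNL (adjusted p = 5.02e-05, log2 fold change 5.31 with SE 0.45). It was at 459 or more in every ligated library and at 24.9 or less in Sham. The cyclic GMP-dependent kinase genes Prkg1 and Prkg2 fell from 725 ± 54.6 to 355 ± 47.4 and from 169 ± 17.9 to 26.9 ± 12.97, and Pde11a had a log2 fold change of -3.85. Pde8a, a cyclic AMP phosphodiesterase gene, rose from 87.5 ± 6.22 to 192 ± 12.8. MAP kinase and phosphatase genes gave 8 higher and 12 lower of 36, with phosphatases on both sides, an order that turned to 11 and 10 without Sham replicate 3, to 13 and 12 with voom and to 7 and 6 in the test against a 1.2-fold change. Dusp26 (from 1645 ± 243 to 4717 ± 406), Dusp6 (from 336 ± 50.2 to 1020.2 ± 283) and Dusp1 (from 143 ± 17.2 to 402 ± 49.2), which switch MAP kinases off, rose, and Dusp5 fell (log2 fold change -1.95). Of the kinases called, 8 fell and 2 rose, the former with Map2k4 (from 724 ± 62.3 to 369 ± 63.2) and the JNK gene Mapk10 (-0.93).

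Growth factor and developmental pathways were among the lists with more risers than the background. In the receptor tyrosine kinase list 20 of 48 tested members rose and 10 fell. Fgf2, basic fibroblast growth factor, had 26.4, 28.4, 40.5 and 33.8 in Sham and 201, 293, 215 and 184 in SNL (adjusted p = 2.72e-05, log2 fold change 2.75 with SE 0.20). Btc, an EGF receptor ligand, Egfr and Erbb2 rose with log2 fold changes of 2.75, 1.65 and 1.47, and Met, the receptor of hepatocyte growth factor, rose from 59.7 ± 13.7 to 239 ± 54.2. Fgf9 (from 243 ± 37.99 to 69.5 ± 2.08), Fgf12 (from 1074 ± 187 to 258 ± 69.9) and the neuregulin genes Nrg1 (-1.38) and Nrg2 (-1.66) fell. Among Notch and hedgehog genes 15 of 30 tested members rose and 3 fell. Of the hedgehog genes in it, 8 rose and Shh and Sufu did not pass the test. The Schwann cell ligand gene Dhh went from 1143 ± 102 to 1956 ± 240.2, and the receptor genes Ptch1 (1.24) and Smo (0.74) and the transcription factor genes Gli1 (1.49), Gli2 (1.71) and Gli3 (1.199) had the log2 fold changes in brackets. On the Notch side, Mfng (from 24.4 ± 2.995 to 70.4 ± 5.09) and the effector gene Rbpj (from 298 ± 41.1 to 508 ± 29.03) rose, and Hes5, a target gene of Notch in glia, fell from 75.7 ± 21.5 to 13.5 ± 5.87.

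Wnt genes gave 16 higher and 8 lower of 46. The receptor gene Ryk (from 222 ± 30.3 to 367 ± 44.5), the relay gene Dvl2 (from 108 ± 7.74 to 209.7 ± 36.6), the R-spondin genes Rspo1 (log2 fold change 1.399) and Rspo3 (1.44) and the frizzled gene Fzd2 (1.85) rose. Dkk3, a secreted protein of the dickkopf family, fell from 2772 ± 376 to 1268 ± 94.5 and Fzd9 from 39.6 ± 5.64 to 9.63 ± 3.28. Among JAK, STAT and suppressor genes, 13 of 26 rose and 0 fell. Jak2 went from 693 ± 80.6 to 1700.4 ± 265, Stat5a from 189 ± 24.2 to 409.9 ± 53.6, and Stat4, known from lymphocytes, from 7.13 ± 3.44 to 63.2 ± 16.01. The feedback suppressor gene Socs3 had a log2 fold change of 2.56, and Ptpn6, the SHP-1 phosphatase of blood cells, went from 85.8 ± 15.9 to 296 ± 60.9, while the T and NK cell and macrophage marker sums rose.

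Most of the called retinoid and nuclear receptor genes were higher. In the list of retinoid genes and nuclear receptors 20 of 42 tested members rose and 6 fell. Rdh10, which oxidizes retinol, had 66.8, 61.3, 111 and 84.5 in Sham and 393, 304, 274 and 466 in SNL (adjusted p = 0.00013, log2 fold change 2.15 with SE 0.23). The retinol uptake receptor gene Stra6 (log2 fold change 3.204), the retinaldehyde dehydrogenase genes Aldh1a1 (1.34) and Aldh1a3 (1.996), the retinoic acid-binding protein gene Crabp2 (from 172 ± 25.1 to 853 ± 192) and the receptor genes Rara (from 104 ± 6.23 to 343 ± 71.9) and Rarg (1.12) rose. Crabp1, the second binding protein, fell (-1.97). Rara is a clear case at the level of single libraries, with 111, 103, 104 and 96.1 in Sham and 361, 311, 267 and 434 in SNL. The orphan receptor gene Rorb (2.93) rose, and Esrrb (-2.43) fell.

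Most called genes of the axon membrane and of adhesion fell. Of the genes of the node of Ranvier and axon initial segment, 4 of 28 tested members rose and 13 fell, with a median log2 fold change of -0.64. Beside Hapln1 and Hapln4, the proteoglycan gene Bcan fell from 904 ± 121 to 257 ± 103 (adjusted p = 0.000456, log2 fold change -1.89 with SE 0.26) and Lgi1, a secreted ligand at the axon, from 846 ± 94.4 to 329 ± 82.8. Vcan, the proteoglycan versican, had 72.3, 67.03, 111 and 82.2 in Sham and 595, 579.6, 483 and 1216 in SNL (adjusted p = 8.13e-05, log2 fold change 3.03 with SE 0.28), and Gldn, the gliomedin gene by which Schwann cells gather sodium channels, rose from 549 ± 84.4 to 1444 ± 318. SNL replicate 4 was the highest for Vcan, as for the collagen genes. In synaptic and cell adhesion, 8 of 52 tested members rose and 24 fell. The contactin genes Cntn3 (log2 fold change -3.63), Cntn4 (-3.602) and Cntn6 (from 115 ± 13.9 to 11.01 ± 6.34), the cadherin genes Cdh9 (from 180.3 ± 63.7 to 13.8 ± 7.601) and Cdh10 (from 141 ± 27.3 to 40.2 ± 6.998) and Cadm1 (from 3059 ± 151 to 1119 ± 257) fell. Flrt3 had 282, 247, 302 and 219.8 in Sham and 2694, 3192, 2633 and 2349 in SNL (adjusted p = 9e-07, log2 fold change 3.37 with SE 0.13), far above Sham in each ligated library, and its relative Flrt1 fell (-1.77).

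Serine protease and serpin genes were among the steepest lists: 18 of 33 tested members rose and 6 fell. The risers Serpina3n and Serpinb2 reached 10 in no Sham library, so that they could enter only through SNL. Plau, the urokinase gene, rose from 92.4 ± 16.04 to 237 ± 22.4, and its inhibitor Serpinb2 had 0, 0, 0 and 2.31 in Sham and 31.04, 45.4, 21.8 and 20.98 in SNL. Serpinh1, a chaperone of collagen folding, rose from 2184 ± 145 to 5046 ± 754 alongside the fibroblast markers, and the protease gene Prss23 from 117 ± 23.3 to 451 ± 83.8. Annexin, S100 and galectin genes gave 7 higher and 8 lower of 27, an order that turned to 9 and 8 without Sham replicate 3 and to 10 and 8 with voom. Anxa5, a binder of membrane phosphatidylserine, had 16001, 16633, 10543 and 15039 in Sham and 4104, 3954, 4643 and 4475 in SNL (adjusted p = 5.65e-05, log2 fold change -1.74 with SE 0.15), whereas Anxa1 (from 875 ± 139 to 3119.5 ± 899.8), Anxa3 (from 161 ± 41.4 to 816 ± 219) and S100a4 (from 874 ± 160.3 to 3272 ± 596) rose. Sphingolipid genes gave 6 higher and 8 lower of 35, an order that turned to 7 and 5 with equal totals, and 9 called without SNL replicate 2. Subunit genes of the first enzyme of the pathway fell, Sptssb as given above and Sptlc3 from 310.2 ± 58.1 to 38.5 ± 23.3, and so did the ganglioside synthase gene St8sia1 (from 377 ± 47.7 to 117 ± 37.5). Gm2a, the lysosomal activator of ganglioside breakdown, rose from 535 ± 44.4 to 1488 ± 402 and the receptor gene S1pr2 from 192 ± 23.5 to 408 ± 77.9.

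Hox genes, which keep a record of position along the body, were mostly below the threshold: 0 of 16 tested rose and 2 fell. Hoxd1, a gene of nociceptors, had 138, 129.5, 178 and 111 in Sham and 4.703, 3.86, 39.8 and 2.74 in SNL (adjusted p = 0.00101, log2 fold change -4.098 with SE 0.66). Hoxb5 went from 25.7 ± 16.4 to 9.41 ± 2.36, and its call was lost without Sham replicate 4 or SNL replicates 1, 2 or 4 (adjusted p 0.056 to 0.0738). For the other 14 the data set no close bound on a change, since the median width of the 95% interval over all genes was 0.771 on the log2 scale.

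A survey of gene names covered families that the lists left out. Symbols were grouped by the letters before their first digit, and 78 such stems had at least 15 tested genes (2753 genes), of which 36 had a median log2 fold change above 0 and 42 below. The highest were Col (collagens, median 1.54, 17 higher and 3 lower of 26), Hist (histones, 1.27, 17 and 0 of 22), Il (interleukins and their receptors, 1.14, 29 and 3 of 40) and Cd (leukocyte surface antigens and others, 1.05, 33 and 5 of 58). Next came Ptpn (tyrosine phosphatases, 0.92, 12 and 0 of 15), RT (major histocompatibility genes, 0.84, 15 and 0 of 26), Rps (0.58, 26 and 4 of 41) and Rpl (0.56, 31 and 0 of 44), the genes of ribosomal proteins. The 4 lower Rps genes were not ribosomal proteins but the S6 kinase genes Rps6ka2, Rps6ka5, Rps6ka6 and Rps6kb1. The medians of these 8 stems kept their sign under every alternative run. The Il and Hist stems include members that could enter only through SNL, such as Il24, Il1a and Hist1h2ba. Of all 194 genes of that kind, 183 were called higher, and of 86 that could enter only through Sham, 83 were called lower. The part of such genes in the counts and medians of the stems was not tested.

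Single genes of these stems show the range of levels. Col27a1 went from 61.3 ± 12.5 to 397 ± 96.4 and Col15a1 from 1261 ± 229 to 4653 ± 679. Among histocompatibility genes, RT1-Da had 356, 357, 807 and 332 in Sham and 6277, 3873, 2809 and 4113 in SNL and RT1-Db1 rose from 261 ± 59.3 to 1649.9 ± 694. RT1-Da was at 2809 or more in each ligated library, and Sham replicate 3, at 807, was far above the other Sham libraries. The histone genes Hist2h3c2 (from 106 ± 15.6 to 358 ± 76.9) and Hist1h2bl (from 42.99 ± 5.47 to 179 ± 57.9), the receptor gene Il4ra (from 172 ± 37.6 to 753 ± 71.9), the adhesion receptor gene Cd97 (from 83.8 ± 4.47 to 447 ± 94.6) and the neuronal phosphatase gene Ptpn5 (from 64.6 ± 15.7 to 443 ± 90.2) rose. The ribosomal protein genes rose by less, such as Rps2 (from 3880.1 ± 142 to 7128 ± 851), Rps18 (from 2392 ± 299.9 to 5022 ± 935), Rpl7 (from 3978 ± 298 to 6985 ± 916) and Rpl41 (from 5812 ± 420.0 to 9839 ± 1387). Genes of such families with near-identical copies can share reads, and their single values are uncertain.

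The lowest medians were those of Abhd (hydrolases, -0.51, 3 higher and 8 lower of 15), Cox (cytochrome oxidase and related genes, -0.45, 0 and 10 of 20) and Kctd (-0.44, 2 and 8 of 15). They were followed by Mapk (-0.44, 2 and 7 of 16), Cdh (cadherins, -0.43, 4 and 7 of 18), Dnajc (chaperones, -0.40, 0 and 11 of 23), Atp (ATPases and ATP synthase, -0.38, 6 and 29 of 61) and Mrps (mitochondrial ribosome, -0.38, 0 and 10 of 27). Kctd8, an auxiliary subunit gene of GABA-B receptors, had 1187, 1127, 851 and 1017 in Sham and 214, 249, 316 and 255 in SNL (adjusted p = 2.79e-05, log2 fold change -2.01 with SE 0.15), the clearest fall of its stem. Abhd12, a lysophosphatidylserine lipase gene, went from 3097 ± 242 to 1427 ± 175, and Abhd8 had 1381 to 1692 in Sham and 555 to 772 in SNL. Atp6v1a, a subunit gene of the proton pump of vesicles and lysosomes, went from 6753 ± 666 to 3415 ± 295, and Atp13a4 from 70.1 ± 22.2 to 8.33 ± 3.22. Dnajc5, of the synaptic vesicle cysteine string protein, fell from 969 ± 112 to 574 ± 31.1 and Dnajc27 from 1338 ± 69.1 to 596 ± 135. The p38 kinase genes Mapk11 (from 758 ± 88.3 to 471 ± 31.5) and Mapk12 (from 795 ± 84.2 to 462 ± 70.6), the oxidase genes Cox11 (from 295 ± 19.3 to 189 ± 20.1) and Cox4i2 (from 20.2 ± 3.904 to 7.53 ± 2.16) and the mitochondrial ribosome genes Mrps7 (from 951 ± 135 to 640.0 ± 27.8) and Mrps15 (from 605 ± 58.8 to 411 ± 26.6) fell as well.

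A smaller set of genes can be said to have held its level on the scaling of the deposited values. The 95% interval of the log2 fold change lay within -0.25 to 0.25 for 70 genes, although 6189 genes were not called. Among the genes not called, 896 had an unadjusted p under 0.05, so that a missing call is not a sign of a stable level. The 6 stable genes with the highest levels were Cd81, Capn2, Pank3, Evi5, Man1b1 and Sdf4. The upper limits of their intervals were 0.155 to 0.237. Equal totals moved the median log2 fold change over all genes by 0.1004, and the intervals were not taken under that scaling. Whether these genes stay within the bound there was not tested. Cd81, a tetraspanin gene, had 7565, 7074, 7288 and 8247 in Sham and 7707, 7194, 7214 and 7688 in SNL (log2 fold change -0.02, adjusted p = 0.899). Capn2, the calpain 2 gene, had 6462, 6603, 5865 and 6703 in Sham and 6675, 6824, 6124 and 6271 in SNL, and the pantothenate kinase gene Pank3 went from 4377 ± 444 to 4378 ± 122. In each the groups overlapped.

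The ligated libraries were not equally far from sham. A position was computed for each library and gene on the log2(value + 1) scale, with 0 at the Sham mean and 1 at the SNL mean and with the library left out of its own mean. The median position of SNL replicate 3 was 0.83 over the 396 genes at least 4-fold higher and 0.58 over the 286 at least 4-fold lower. SNL replicates 1, 2 and 4 lay at 1.12, 1.01 and 1.03 for the risers and at 1.27, 1.04 and 1.16 for the fallers. SNL replicate 3 was the highest of the ligated libraries for 248 of the 286 genes that fell and the lowest for 255 of the 396 that rose. Sham replicate 3 lay at 0.20 for the risers, and the other Sham libraries between -0.09 and -0.05. For the fallers all 4 Sham libraries lay between -0.03 and 0.02.

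**Figure D5:**
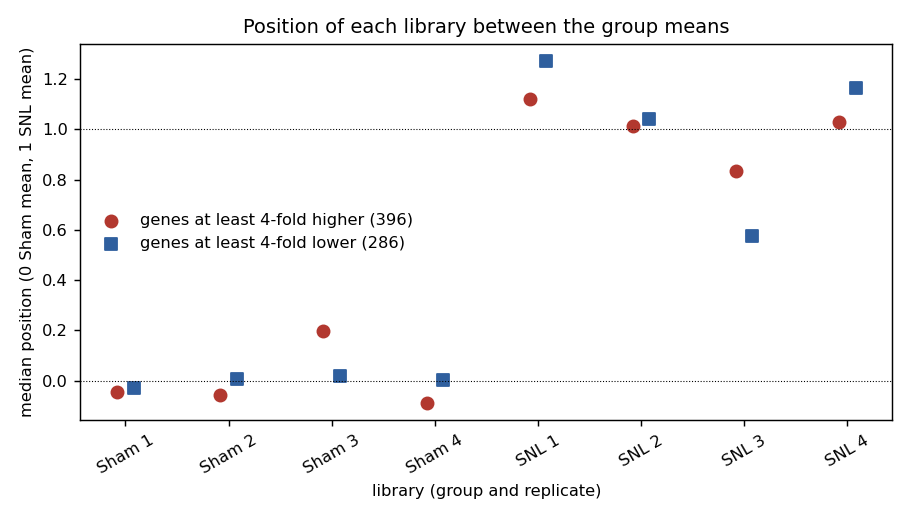
Median position of each library between the group means (0 is the Sham mean, 1 the SNL mean) over the 396 genes at least 4-fold higher (red circles) and the 286 at least 4-fold lower (blue squares). SNL replicate 3 lies at 0.83 and 0.58, below the other ligated libraries, and Sham replicate 3 at 0.20 for the higher genes.

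Single genes show this spread directly. Vamp1, the synaptobrevin gene of fast-conducting neurons, had 11491, 13141, 12264 and 12679 in Sham and 1471, 1877, 4253 and 1546 in SNL (adjusted p = 0.00019, log2 fold change -2.58 with SE 0.30), and the sodium channel gene Scn1a had 5522, 6199.6, 5644 and 5754 in Sham and 854, 1299, 1984 and 722 in SNL. In both, SNL replicate 3 was the highest ligated library and still below every Sham value. S100a6 had 5437, 5443, 5050.1 and 5615 in Sham and 5982, 4277, 5291 and 11457 in SNL (adjusted p = 0.506), with SNL replicates 1 and 4 above every Sham library and SNL replicate 2 below. Sod2, the mitochondrial superoxide dismutase gene, was tight in Sham and spread in SNL, with 3259.5, 3244, 3319 and 3353 in Sham and 5167, 7185, 4747 and 5365 in SNL. These 4 were taken for the size of their SNL spread relative to Sham.

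The replicates numbered 3 also shared a set of deviating genes, and no such count was made for other pairs of libraries. In both groups, 69 genes were at least 2-fold higher in replicate 3 than in each of the other 3 libraries, and 6 were at least 2-fold lower. Of the 69, 26 were called lower with ligation and 0 higher, against 23.4% lower and 24.3% higher of all genes. Clip3, a microtubule-linked protein gene of neurons, had 847, 606, 5161 and 499.6 in Sham and 268, 1122, 2987 and 316 in SNL. Scrt1, a transcriptional repressor gene of neurons, had 131, 136, 595 and 141 in Sham and 23.5, 66.4, 199.7 and 31.9 in SNL. Lbp, which encodes lipopolysaccharide-binding protein, had 4.17, 12.5, 238 and 6.15 in Sham and 22.6, 30.01, 146 and 27.4 in SNL. Clip3, Scrt1 and Lbp did not pass the test (adjusted p = 0.637, 0.0585 and 0.42). These genes were chosen after their values were seen. The labels do not say what the libraries numbered 3 have in common, and the cause was not tested.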

How the data were processed

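RNA of rat dorsal root ganglia was sequenced in 11 libraries, of which the 4 Sham and 4 SNL libraries were compared. The authors deposited 1 table of normalized read counts per gene, treated here as a signal because the values are counts scaled between libraries and not whole reads. TopHat2 2.0.9, Cuffdiff 2.1.1 and the build rn4 are named in the submitters' processing notes, with no role or order. Trizol and RNeasy are both named as extraction reagents per the labels' protocols, without saying which library had which. Groups follow the labels. Genes held at 10 or above by 3 or more of the 8 libraries were fitted as log2(value + 1) with limma 3.58.1 (moderated variance with trend and robust estimates, statmod 1.5.0, R 4.3.3), with Benjamini-Hochberg adjustment over 11822 genes. Sdc2 had a value of 0 in all SNL libraries and values well above 10 in all Sham libraries, and for this combination it was left out of the test. Ugt1a1, Sprr1a and Il1a, at 0 throughout Sham but with lower values in SNL than Sdc2 had in Sham, were tested. A call means an adjusted p under 0.05, errors beside means are SDs over n = 4, and positions in the promoter windows are counted from -1 at the base before the start. Estimated reads come from the smallest step between low values. The fit was also run on simulated data with few changed genes and no deviating library, unlike these data, so that this run does not check the calls made here. Same-numbered libraries of the groups correlated in their deviations with r of 0.20, -0.00, 0.45 and 0.11, so the numbers were not taken to pair them.

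The members and lists were chosen with earlier results of these data known. Genes named with values per library or means were taken by rule: the 12 highest and 12 lowest fold changes among called genes that do not overlap and reach a mean of 100, the 10 largest rises and falls of the mean among called genes, 4 called members per list with the smallest p, genes under 5 in one group and at least 50 in the other, the 6 highest stable genes, 4 genes of large SNL spread and 2 called members per stem. Other members given by a log2 fold change, the genes with promoter matches, the genes nearly silent without SNL replicate 3 and those shared by the replicates numbered 3 were named after their values were seen. Alternatives covered the pseudocount, scaling, filter, test, threshold, replicate block and left-out libraries. Some genes that these rules took are not reported here.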

Additional observations from a re-analysis of the deposited data

Results flagged for a closer look

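Among 410 groups of 4 libraries tested for a single distant library in the genes named by rule, 37 had one. Chance gives about 1 in 20 such groups. SNL replicate 3 was the highest library in 16 of them. These were Camkv (16.5), Chrna3 (90.9), Evi5 (3357), Hapln1 (73.6), Hapln4 (185), Hoxd1 (39.8), Htr3b (259), Mrgprb4 (29.3), Mrgprd (27.8), Mrps15 (451), Mt3 (918), Myh8 (25.5), Pvalb (364), Sptssb (19.5), Sst (60.8) and Vamp1 (4253). All but Evi5 and Mrps15 are genes that fell by over 2 on the log2 scale. SNL replicate 3 was the lowest ligated library for Tubb6 (789). Sham replicate 3 stood above the other Sham libraries for 7 genes, namely Flnc (524), Hapln4 (1256), Myc (107.5), Nefm (86079), Pfkm (5617), RT1-Da (807) and Vim (15471). It stood below them for Etfa (1574), Gldn (424), Hes5 (43.6) and Stmn4 (148). The remaining distant libraries were spread over the other replicates. SNL replicate 2 was highest for Hamp (53.6), Rbpj (551) and Rgs12 (802.5), SNL replicate 1 was highest for Mfng (78.1) and lowest for Lipa (1143), and SNL replicate 4 was highest for Vcan (1216) and lowest for Aldoa (9809). Sham replicate 2 was lowest for Hk2 (87.5) and Sham replicate 4 highest for Serpinb2 (2.31). These are scaled counts, and no cause was tested.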

How the results depend on the processing

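Over 23 alternatives no call changed direction, and the share of called genes that were higher stayed between 48.7% and 60.6%. The count of called genes moved by over 1.5 times in these settings: a test against a 1.2-fold change gave 3414 genes (1878 higher, 1536 lower), and an adjusted p under 0.01 gave 3652 (1929 higher, 1723 lower). Leaving out 1 library gave 4521 (without Sham replicate 4) to 6573 (without Sham replicate 3) called genes, 2343 to 3310 higher and 2165 to 3263 lower. Without replicate 3 of both groups, 3494 rose and 3568 fell. The fit with the replicate number as a block called 6447 genes (3210 higher, 3237 lower). Equal totals, which moved the median log2 fold change by 0.1004, gave 3318 higher and 2160 lower, and weighted voom on estimated reads gave 4116 and 3088. The cause of these shifts was not tested. Of 203 called genes named by rule, 192 kept their call in all 23 settings; Apoe, Hoxb5, Lars, Nars, Nefm, Nolc1, Rmrp, Rrp1, Rrp9, Sncg and Tubb3 lost theirs in at least 1. Of 736 list counts, 61 moved by over 1.5 times, and in 8 lists the majority of higher or lower calls turned in some setting. The planned tests that need whole read counts were not run, since the values are not counts. The counts of nearly silent genes without SNL replicate 3, and without both replicates 3, were added after seeing the data. Low values limit folds of genes at single reads in Sham.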
